A study of Homo sapiens with 6 samples.

Results

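SWI/SNF chromatin remodelling subunits were examined in xenograft tumors through 10 member genes, taken as a named set: the ATPases SMARCA4 and SMARCA2, the core subunits SMARCB1, SMARCC1, SMARCC2, SMARCD1 and SMARCD3, and the complex-defining subunits ARID1A, ARID1B and PBRM1. Every probe set whose platform annotation names exactly 1 of these genes was used, which gave 44 probe sets of the 44988 that name 1 gene, and 10 of 18132 genes. The tumors came from CRL-5889, an established cell line labelled as lung squamous carcinoma, grown in nude mice for 4 weeks. In 3 tumors the cells had been transfected with a TRA2B-DNAH5 fusion and in the other 3 with vector, and RNA of each tumor was hybridised to its own Affymetrix array. The labels give no expression level of the fusion, no clone number and no host animal for a tumor, so any difference between the cell populations that arose by other means cannot be told apart from the fusion. The comparison asks whether tumors carrying the fusion differ in transcripts of this complex.

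SWI/SNF complexes use the energy of ATP to slide or evict nucleosomes, which opens promoters and enhancers to transcription factors. Each complex holds 1 ATPase, either SMARCA4 or SMARCA2, on a scaffold of core subunits, and the remaining subunits set which form is built: ARID1A or ARID1B mark the canonical BAF complex, PBRM1 marks PBAF, and BRD9 marks a smaller non-canonical form. Lung cancers often carry damaging mutations in these genes, and SMARCA4 protein is lost in a number of lung cancer lines, sometimes together with SMARCA2. A transcript level does not report on protein or on mutation.

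No SWI/SNF subunit passed the test between fusion and vector tumors. By limma, a linear model with variance shared across genes, 0 of 10 passed an adjusted p of 0.05, where 0.0730% of all 13694 genes tested passed, and 0 of 10 had an unadjusted p below 0.05, where 5.89% of all genes did. In all 10 the fusion and vector tumors overlapped, while the groups stood apart in 11.7% of all genes. The brightest probe set of each subunit gave log2 fold changes, fusion minus vector, between -0.24 and 0.042. The widest 95% confidence interval, that of ARID1B, reached a 1.47-fold decrease, and that of SMARCC1, the narrowest, a 1.18-fold decrease.

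**Figure D1:**
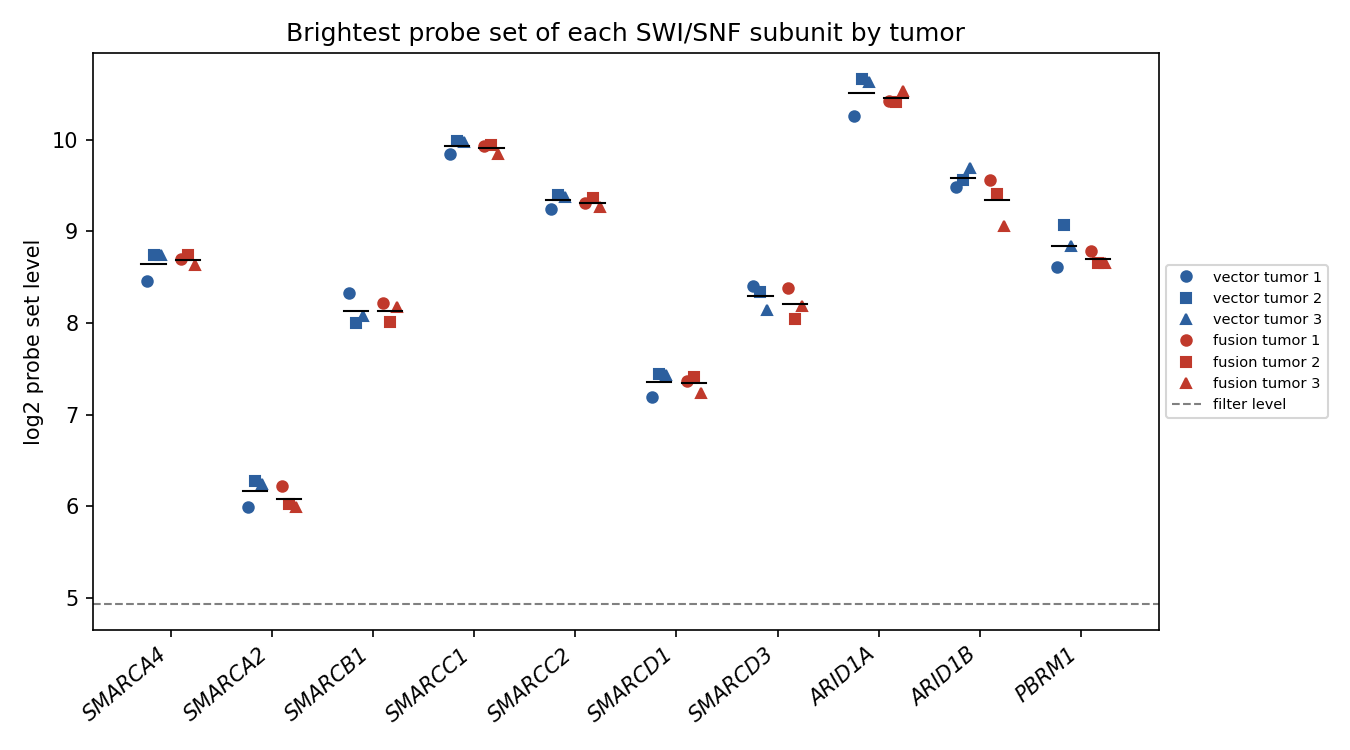
Log2 level (vertical axis) of the brightest probe set of each of the 10 subunits in the 3 vector tumors (blue) and 3 fusion tumors (red). Symbols mark the tumor number, horizontal bars are group means and the dashed line is the level of 4.94 below which probe sets were taken as dim. Blue and red symbols overlap for every subunit, and all 10 probe sets lie above the dashed line.

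The ATPase pair differed in how many of their probe sets rose above the dim range. SMARCA4 had 6 of 6 probe sets above a log2 level of 4.94, the 30th percentile of all probe sets on the arrays, with means over the 6 tumors from 6.52 to 8.67. SMARCA2 had 2 of 8 above it, at 6.13 and 6.05, and 6 below, from 3.48 to 4.36. Both bright ones are of the types that related transcripts can share (suffix s or x), so their assignment to SMARCA2 is less certain. All 5 SMARCA2 probe sets with suffix a lay below the level of 4.94. Among all probe sets naming 1 gene, 29.6% lay below this level. A log2 level also depends on the binding strength of its probes, so levels of different probe sets do not rank transcripts, and which SMARCA2 transcripts the dim probe sets match was not analysed here.

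The upstream start regions of the ATPase pair are shown because these paralogs can replace each other in the complex and are the members whose probe sets separated most clearly by this criterion. Both runs are the 250 bases before the farthest upstream start in the RefSeq table of GRCh38.p14, plus strand, SMARCA4 at chr19:10960780-10961029 and SMARCA2 at chr9:2015097-2015346. Capitals mark GGGCGG or its reverse complement CCGCCC, the GC box, searched on both strands.
SMARCA4: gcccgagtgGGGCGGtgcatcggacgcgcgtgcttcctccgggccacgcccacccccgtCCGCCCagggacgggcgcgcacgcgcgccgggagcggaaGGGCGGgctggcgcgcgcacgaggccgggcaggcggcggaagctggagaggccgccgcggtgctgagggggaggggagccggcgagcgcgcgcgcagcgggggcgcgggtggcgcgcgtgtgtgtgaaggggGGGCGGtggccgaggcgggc
SMARCA2: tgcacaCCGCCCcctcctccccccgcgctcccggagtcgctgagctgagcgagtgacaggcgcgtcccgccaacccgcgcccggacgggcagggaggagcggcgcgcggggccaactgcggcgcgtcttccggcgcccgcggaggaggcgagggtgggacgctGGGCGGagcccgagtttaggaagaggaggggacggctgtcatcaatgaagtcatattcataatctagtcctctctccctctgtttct
The SMARCA4 run holds 4 GC boxes, 44 CG dinucleotides and 82.4% G or C. The SMARCA2 run holds 2 GC boxes, 29 CG dinucleotides and 68.8% G or C. Over all 35116 start regions of this length in the table, 42.6% hold a GC box and the median G or C content is 58%. The table holds 4 start regions for SMARCA2 and 2 for SMARCA4, and SMARCA2 is known to make shorter proteins from internal starts. In all, 8 of the 10 subunits matched the table, and 4 of the 8 hold a GC box. The subunits were read only in the farthest upstream region of each gene. The 42.6% and 58% cover every start region in the table, so the shares are not directly comparable. A match of letters is not a measured binding site, and these tumors were not assayed for binding.

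SMARCA4, the ATPase also called BRG1, was well above the dim range in every tumor. Its brightest probe set read 8.70, 8.74 and 8.64 in the fusion group (here and below in the order of tumor number) and 8.46, 8.74 and 8.75 in the vector group. Vector tumor 1 was the low one, and the other 5 ran from 8.64 to 8.75. The group means were 8.69 ± 0.054 and 8.65 ± 0.16 (SD, n = 3 each), a log2 fold change of 0.042 (SE 0.11, 95% confidence interval -0.20 to 0.29, limma adjusted p = 0.983). All 6 SMARCA4 probe sets had log2 fold changes above 0, from 0.042 to 0.23, and none passed when every probe set was tested (smallest unadjusted p = 0.169, limma adjusted p = 0.971). The brightest has suffix x, a type that related transcripts can share. The 4 with suffix a had means of 6.72 to 8.24 and log2 fold changes of 0.089 to 0.23. Without vector tumor 1 the brightest probe set turned to -0.051 and 5 of 6 remained above 0.

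SMARCA2, the alternative ATPase also called BRM, read 6.22, 6.03 and 5.99 in fusion tumors and 5.99, 6.27 and 6.24 in vector tumors. Vector tumor 1 and fusion tumor 3 were the lowest pair. The log2 fold change was -0.087 (SE 0.11, 95% confidence interval -0.35 to 0.17, adjusted p = 0.978 by limma). Its second bright probe set pointed the other way, at 0.098. Tested singly, 0 of the 44 probe sets of the subunits passed after adjustment (0.0156% of all 44988 did). Only 1 of them, a dim one of SMARCA2, had groups that stood apart (10.9% of all probe sets did) and an unadjusted p below 0.05 (5.33% did). It read 3.67, 3.48 and 3.75 in fusion and 3.80, 4.09 and 3.93 in vector tumors, a log2 fold change of -0.31 (limma adjusted p = 0.873), and its mean of 3.79 lay well inside the dim range.

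**Figure D2:**
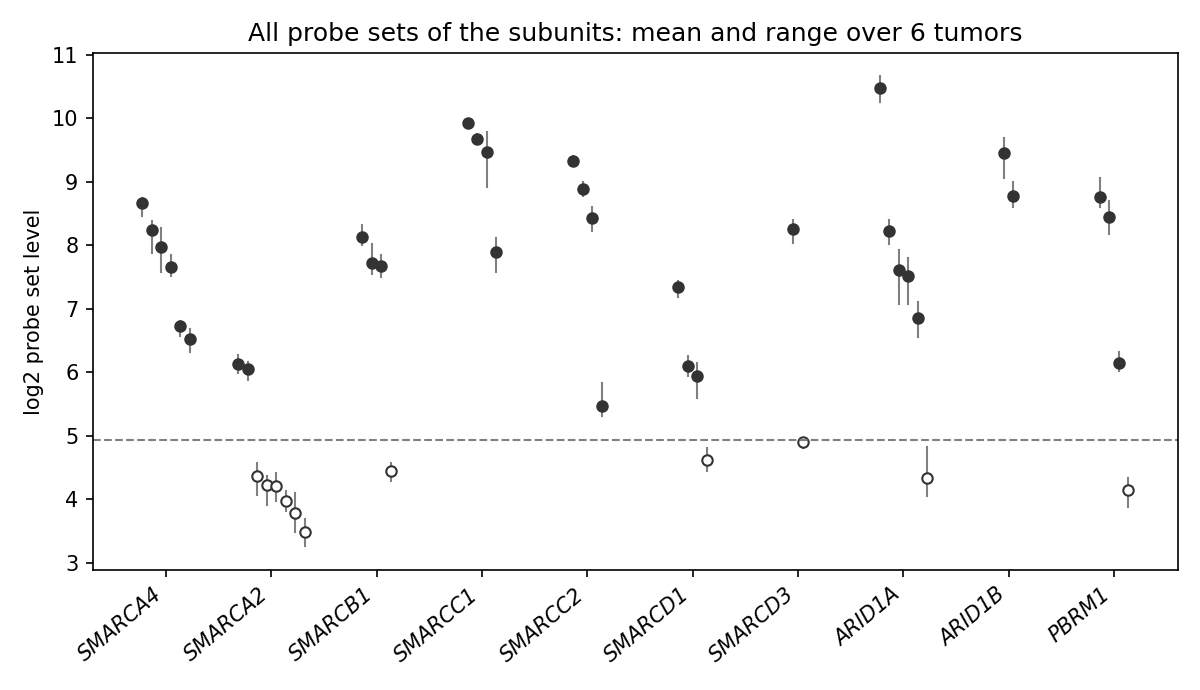
Mean log2 level (points, vertical axis) and range over the 6 tumors (lines) for each of the 44 probe sets, grouped by gene and ordered by level. Open points lie below the dashed filter level of 4.94, as 6 of 8 do for SMARCA2 and 0 of 6 for SMARCA4.

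SMARCB1, the core subunit whose loss defines malignant rhabdoid tumors, had nearly equal group means. It read 8.22, 8.01 and 8.17 in fusion and 8.33, 8.001 and 8.08 in vector tumors, with a log2 fold change of 0.00024 (SE 0.11, 95% confidence interval -0.26 to 0.26, adjusted p = 1 by limma). Its 4 probe sets gave -0.064 to 0.049, and 1 of them was dim. Here vector tumor 1 was the high value, the opposite of its place in SMARCA4.

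The scaffold subunits SMARCC1 and SMARCC2, which pair with each other and hold the core together, had the smallest standard errors of the set. SMARCC1 read 9.93, 9.94 and 9.85 in fusion and 9.84, 9.99 and 9.97 in vector tumors (log2 fold change -0.029, SE 0.090, adjusted p = 0.987). SMARCC2 read 9.31, 9.37 and 9.27 in fusion and 9.25, 9.40 and 9.38 in vector tumors (log2 fold change -0.028, SE 0.090, limma adjusted p = 0.988). In both genes vector tumor 1 was lowest and vector tumor 2 highest. The SMARCC1 probe sets differed in spread between tumors. The widest read 9.44, 9.65 and 9.52 in fusion and 8.91, 9.79 and 9.56 in vector tumors, and the brightest 9.84 to 9.99 over all tumors. All 8 probe sets of the pair lay above the dim range.

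SMARCD1 and SMARCD3, alternative subunits that link the complex to transcription factors, also overlapped between groups. SMARCD1 read 7.37, 7.41 and 7.24 in fusion and 7.19, 7.44 and 7.44 in vector tumors (log2 fold change -0.016, SE 0.11, limma adjusted p = 0.994). SMARCD3, known for its part in heart and muscle development, read 8.39, 8.04 and 8.19 in fusion and 8.41, 8.34 and 8.14 in vector tumors (log2 fold change -0.092, SE 0.12, adjusted p = 0.975). Fusion tumor 2 was lowest for SMARCD3, and vector tumor 1 lowest for SMARCD1. Each gene also had 1 dim probe set, of 4 for SMARCD1 and of 2 for SMARCD3.

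ARID1A, the DNA-binding subunit of canonical BAF and the SWI/SNF gene mutated most often across human cancers, read 10.43, 10.42 and 10.53 in fusion and 10.26, 10.66 and 10.63 in vector tumors. All 3 fusion values fell between the low value of vector tumor 1 and the high values of the other vector tumors. The log2 fold change was -0.057 (SE 0.12, 95% confidence interval -0.34 to 0.22, adjusted p = 0.983 by limma). The other 5 ARID1A probe sets gave 0.026 to 0.23, the highest from a dim one with a mean of 4.33. Direction thus differed between probe sets with all tumors included. The most variable probe set, at 0.085, read 7.88, 7.61 and 7.47 in fusion and 7.08, 7.93 and 7.69 in vector tumors. Vector tumor 1 was the low value there too. Without vector tumor 1 the brightest gave -0.19, and the other ARID1A probe sets are not given singly for that fit.

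ARID1B, the paralog that can take the place of ARID1A, had the smallest p of the set. It read 9.57, 9.41 and 9.06 in fusion and 9.48, 9.57 and 9.69 in vector tumors, and fusion tumor 3 alone lay far below the rest. Fusion tumor 1 was as high as vector tumor 2. Means were 9.34 ± 0.26 and 9.58 ± 0.11 (SD, n = 3 each), with a log2 fold change of -0.24 (SE 0.14, 95% confidence interval -0.55 to 0.081), an unadjusted p of 0.125 and a limma adjusted p = 0.956. Without fusion tumor 3 the log2 fold change was -0.093, and without fusion tumor 1 it was -0.35 (unadjusted p 0.0390, adjusted p = 0.978 by limma). In the fit without fusion tumor 1, 4.87% of all genes had an unadjusted p below 0.05, and ARID1B was the only subunit that did. The second ARID1B probe set gave -0.17. Both are of the type that related transcripts can share (suffix s), so their assignment to ARID1B is less certain. Of the 10 brightest probe sets, 6 were of this type or the similar x type, and of all 44, 13 were.

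PBRM1, the bromodomain subunit of PBAF that reads acetylated histones, also had a negative difference. It read 8.79, 8.65 and 8.66 in fusion and 8.61, 9.07 and 8.84 in vector tumors. Vector tumor 2 was high, vector tumor 1 was lowest of all 6, and the fusion tumors lay between. The log2 fold change was -0.14 (SE 0.13, 95% confidence interval -0.43 to 0.15, limma adjusted p = 0.963). All 4 PBRM1 probe sets were below 0, from -0.23 to -0.064. Without vector tumor 1 the brightest gave -0.25 with an unadjusted p of 0.0386, and without vector tumor 2 it gave -0.025. Neither passed after adjustment (limma adjusted p = 0.508 without vector tumor 1).

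**Figure D3:**
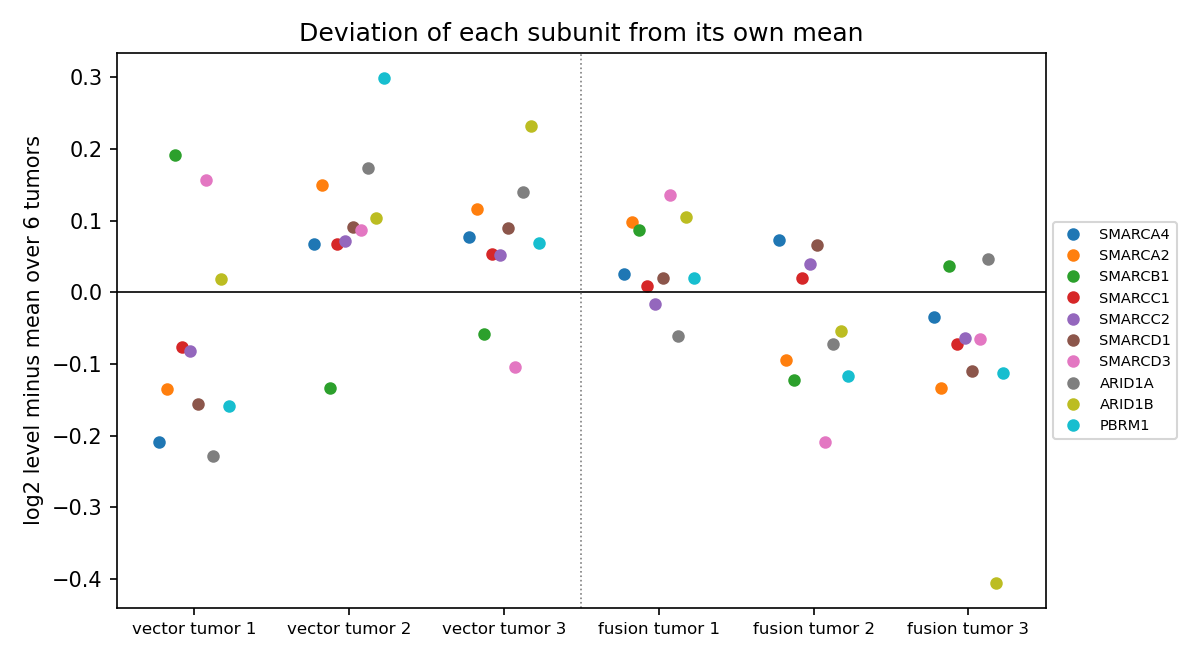
Log2 level of each subunit's brightest probe set minus its mean over the 6 tumors (vertical axis), by tumor. Vector tumor 1 is the lowest tumor for 7 of the 10 subunits and vector tumor 2 the highest for 6. The single lowest point is ARID1B in fusion tumor 3.

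As a set, the brightest probe sets lay more often below 0 than above it, and the full set of probe sets was evenly divided. Of 10 subunits, 8 had log2 fold changes below 0, with a median of -0.043, while 49.2% of all genes were below 0 and their median was 0.0020. Of all 44 probe sets, 22 were above 0 and 22 below. With the mean of each gene's probe sets, 5 of 9 tested subunits were below 0 and the median was -0.0089. The median within-group SD of the members was 0.14 log2 units, the same as that of all genes tested (0.14).

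Vector tumor 1 stood apart from the others on the first principal component of all probe sets naming 1 gene (score 53.0 against -13.9 to -2.90, 42.1% of variance), and it had the lowest array median, 6.27 against 6.34 to 6.39. Without it, 9 of 10 subunits were below 0 with a median of -0.087, 51% of all genes were below 0, and 0 of 10 passed by limma (1, PBRM1, at an unadjusted p below 0.05, where 9.21% of all genes were). The mean over the 10 subunits was 8.69, 8.60 and 8.56 in fusion and 8.58, 8.75 and 8.72 in vector tumors, and these overlapped.

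The remaining SWI/SNF genes, 18 listed subunits outside the set, gave the same count of calls. ACTL6B and DPF3, subunits known from neurons and from muscle and neurons, were dim at 3.93 to 4.30 and 3.63 to 3.95 in all tumors and were not tested. By limma 0 of the other 16 passed after adjustment (0.0730% of all genes), and 1 was higher and 0 lower at an unadjusted p below 0.05 (3.16% and 2.73% of all genes). They divided into 8 above 0 and 8 below, with a median of 0.0042. The gene at unadjusted p below 0.05 was BRD9, the bromodomain subunit of non-canonical BAF. It read 10.18, 10.001 and 10.10 in fusion and 9.69, 9.90 and 9.97 in vector tumors, and every fusion value lay above every vector value. Its log2 fold change was 0.24 (SE 0.11, unadjusted p = 0.0491, limma adjusted p = 0.844). BICRAL, another subunit of that form, had 0.22 (adjusted p = 0.956), but BICRA, its paralog, had -0.098. Vector tumor 1 was lowest for BRD9 and for BICRAL, which read 8.26 there against 8.72 and 8.54 in the other vector tumors. BRD9 and BICRAL have 3 probe sets each, and only the brightest was read. Of the PBAF subunits, ARID2 had -0.034, BRD7 -0.12 and PHF10 -0.12, none of them past the threshold. SMARCE1, a core subunit with a DNA-binding HMG domain, stood apart in the lower direction, at 10.24 to 10.37 in fusion and 10.38 to 10.51 in vector tumors (log2 fold change -0.13, adjusted p = 0.962). ACTL6A, the actin-related subunit of proliferating cells, did so only barely, with 11.0612 the highest fusion and 11.0625 the lowest vector value. Its log2 fold change was -0.098 (limma unadjusted p = 0.336), and fusion tumor 1 was the low one at 10.84. Groups that stand apart were seen in 5.94% of all genes in the higher and 5.74% in the lower direction.

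**Figure D4:**
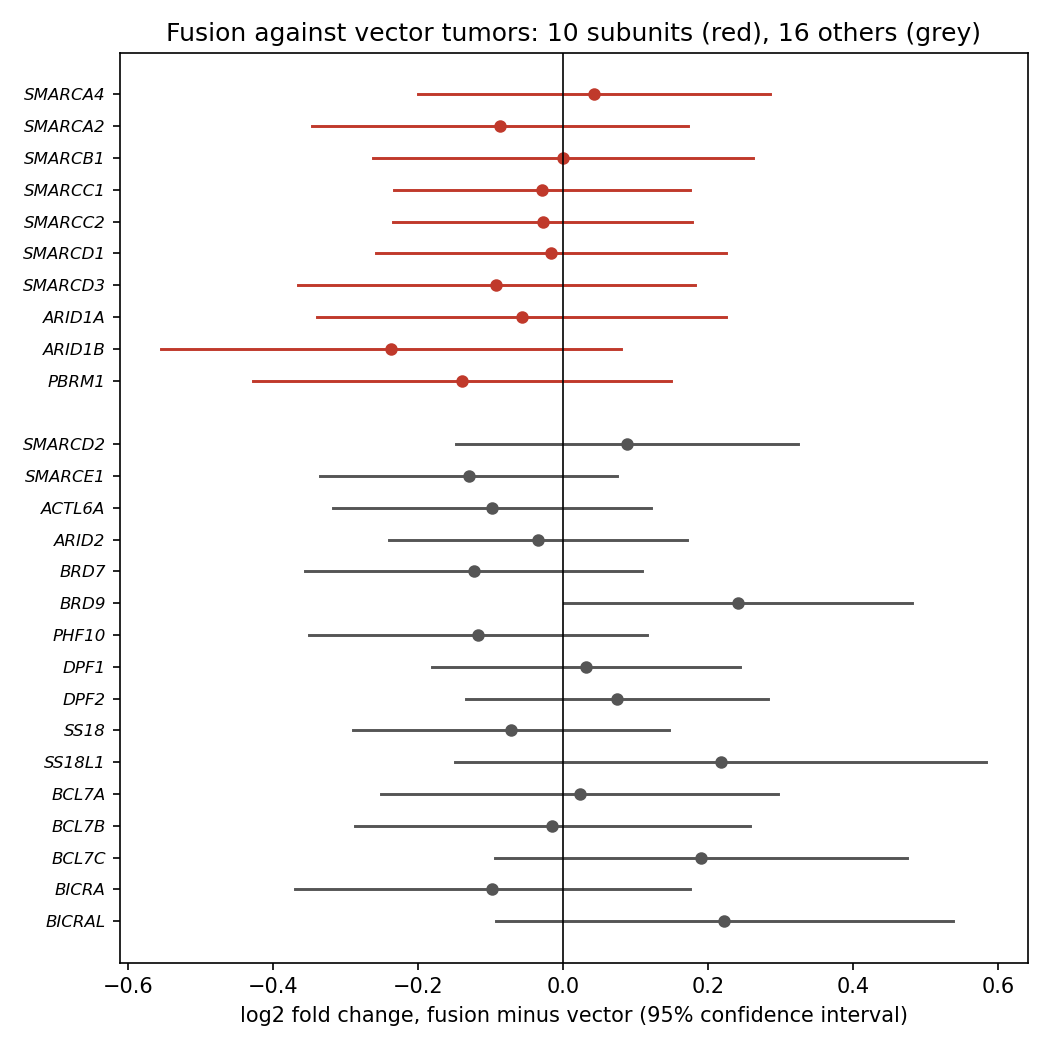
Log2 fold change, fusion minus vector (horizontal axis, points), with limma's 95% confidence interval (lines) for the 10 subunits (red) and 16 other tested SWI/SNF genes (grey). All intervals of the 10 subunits include 0, and that of BRD9 begins just above 0.

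ATPases of other remodelling families and the Polycomb proteins that oppose SWI/SNF were read beside the set. Of 18 such ATPases limma called 0, with 3 higher and 0 lower at an unadjusted p below 0.05, 13 above 0 and a median of 0.090. Over all genes 0.0730% were called, 3.16% were higher and 2.73% lower at that p, 49.2% lay below 0 and the median was 0.0020. The 3 ATPases were SMARCA1, an ISWI ATPase (log2 fold change 0.38, adjusted p = 0.829), SMARCAD1 (0.35, adjusted p = 0.837) and HELLS, which supports DNA methylation (0.25, adjusted p = 0.810). Vector tumor 1 was lowest for all of them, with SMARCA1 at 10.45 against 10.83 and 11.08 in the other vector tumors. None of the Polycomb repressive complex 2 genes passed, and 0 of 4 had an unadjusted p below 0.05, where 5.89% of all genes did. EZH2, the main methyltransferase of that complex, had -0.015, EZH1 0.16, SUZ12 0.18 and EED 0.0040. Vector tumor 1 was lowest for EZH1 (7.80 against 8.52 and 8.55 in the other vector tumors) and SUZ12 (10.64 against 11.15 and 11.22). It was not lowest for EZH2 or EED.

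Genes whose expression has been reported to need SMARCA4 or SMARCA2 in deficient lines gave mixed levels. CDH1, the epithelial cadherin, was dim in every tumor, at 3.68 to 4.47, and CD44, a hyaluronan receptor, lay near the filter level in its brightest of 10 probe sets, at 4.797 to 5.21. VIM, the mesenchymal intermediate filament, read 13.83 to 13.87 in fusion and 13.68 to 13.77 in vector tumors, groups that stood apart with a log2 fold change of 0.12 (limma adjusted p = 0.962). Of 6 tested genes of this list limma called 0 (0.0730% of all genes), 0 had an unadjusted p below 0.05 (5.89%) and 1, VIM, had groups that stood apart (11.7%). CDKN1A, the cell cycle inhibitor p21, had the smallest p, with a log2 fold change of 0.49 (SE 0.25, adjusted p = 0.917) and vector tumors spread from 8.65 to 9.83. SPARC, a matrix glycoprotein, had 0.20 (adjusted p = 0.956).

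The label of the line was checked against markers. SOX2, a squamous lineage factor, read 8.70 to 8.92 in fusion and 9.24 to 10.10 in vector tumors, groups that stood apart without passing the test (log2 fold change -0.83, unadjusted p 0.0024, limma adjusted p = 0.369). The basal keratins KRT5 (4.90 to 5.41) and KRT14 (5.51 to 5.90) and the desmosomal PKP1 (5.51 to 5.72) lay in the lower part of the arrays' range, and DSG3 was dim (4.501 to 4.78). Of the adenocarcinoma markers, NKX2-1 read 5.86 to 6.15, SFTPB 6.03 to 6.31 and NAPSA, an aspartic protease of alveolar cells, 7.26 to 7.75. Of the general epithelial markers, KRT18 read 8.38 to 8.73, KRT8 5.18 to 5.41 and KRT19 4.84 to 5.42, while EPCAM and CDH1 were dim. Of the 5 squamous markers measured, SOX2 lay at the 86.3rd percentile of all probe sets and the other 4 between the 25.3rd and 41.1st. TP63 and KRT6A were not analysed here. Pearson's r across probe sets between any pair of arrays ran from 0.989 to 0.997.

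Other cell types can contribute RNA to these tumors, and mouse host RNA was not told apart from tumor RNA. In bulk RNA, fewer cells of a type and less RNA per cell cannot be told apart. The markers are human genes, so the cells of the line itself can also give their signal. Which source gave a marker's level was not tested. The mean level of 8 fibroblast markers was 6.32 to 6.44 in fusion and 5.98 to 6.19 in vector tumors, with DCN and LUM dim. That of 6 leukocyte markers was 5.34 to 5.38 and 5.14 to 5.30, with PTPRC, CD163 and CD14 dim, and that of 4 adipocyte markers 5.67 to 5.71 and 5.84 to 5.94. The 5 squamous markers averaged 5.89 to 6.066 in fusion and 6.073 to 6.27 in vector tumors. Endothelial (5.56 to 5.62 and 5.55 to 5.71) and skeletal muscle markers (6.08 to 6.83 and 6.27 to 7.06) overlapped. The fibroblast, leukocyte, adipocyte and squamous means separated the groups while the mean of the 10 subunits did not, and their part in the subunits' values was not tested. By limma no marker passed after adjustment (0.0730% of all genes did). At an unadjusted p below 0.05 (3.16% of all genes higher and 2.73% lower), FAP (log2 fold change 0.91), COL1A1 (0.65), THY1 (0.36) and COL1A2 (0.24) were higher among fibroblast markers, CD68 (0.80, adjusted p = 0.112) among leukocyte markers, and PLIN1 (-0.33) and CIDEC (-0.26) lower among adipocyte markers. CD68 alone separated the leukocyte means, since the other 5 averaged 4.71 to 4.75 in fusion and 4.64 to 4.83 in vector tumors. SOX2 likewise separated the squamous means, the other 4 markers averaging 5.19 to 5.35 in both groups.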

How the data were processed

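RNA of 6 tumors was measured on 1 Affymetrix array each, per the labels. The authors deposited log2 probe set values, a scale read from the values; how arrays were background-corrected, normalized and summarised is not given in the sources used here. Of 49293 probe sets, 44988 named 1 gene by the platform annotation, 1832 named several and 2473 were unnamed here. The brightest probe set (highest mean over 6 arrays) stood for a gene, and a gene was tested if that mean reached 4.94, the 30th percentile over the arrays (13694 of 18132 genes). The test was limma's moderated test (version 3.58.1, R 4.3.3), two-sided. P values of all tested genes were adjusted by Benjamini-Hochberg, and 0.05 was the threshold. A second fit took every probe set naming 1 gene, with no filter, and adjusted over all 44988. The replicate number was not in the model. On simulated data with 200 of 13694 genes changed, 10 runs recovered 48.2% of changes of 1.5-fold, 84.6% at 2-fold and 99.2% at 4-fold, with 4.15% false calls. The simulated noise was independent between genes and arrays. No array that departs in many genes together was simulated, though vector tumor 1 stood apart on the first principal component, so these shares may not hold here. The p values measure spread between tumors, and 3 arrays per group limit precision. The subunits and lists were chosen with earlier results of these data known, so no p was adjusted over a list and no set test was run. All 10 subunits were described, and of each other list the genes at unadjusted p below 0.05. Where a list of subunits, remodellers or dependent genes had none, the 3 with the smallest p were named, which was not done for marker lists. Others named beside these, and the marker means without CD68 or SOX2, were picked after their values were seen. Of 8 listed dependent genes, 7 were analysed here. Plots used matplotlib 3.10.9 under Python 3.11.15.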

Additional observations from a re-analysis of the deposited data

How the results depend on the processing

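The count of 0 of 10 subunits, 0 of 16 other SWI/SNF genes and 0 member probe sets past the limma threshold held under every alternative run, with a smallest adjusted p of 0.196 for a subunit (ARID1B, array weights). With array weights 3 subunits had an unadjusted p below 0.05 (ARID1B -0.39, PBRM1 -0.29 and SMARCA2 -0.21), where 13.5% of all genes did. Calls over all genes numbered 10, but 1 with the 50th percentile filter, 16 with the mean of probe sets, 6 with the most variable probe set, 140 with array weights, and 0 to 37 on leaving out each tumor in turn. Of 147 alternative fold changes of single subunits 126 kept their direction and 21 turned, none of them past the threshold, so no direction is called. The 126 include runs with no filter, the 50th percentile filter, limma's trend and robust options or the replicate block. Those settings leave the fold change of a brightest probe set unchanged, so its direction could not turn there. With the mean of probe sets SMARCB1 turned to -0.0089, SMARCC1 to 0.00087, SMARCC2 to 0.021 and ARID1A to 0.088. With the most variable probe set SMARCB1 was -0.021, SMARCC1 0.11, SMARCC2 0.023 and ARID1A 0.085. SMARCB1 was -0.025 with quantile normalization and -0.029 with median centring, and SMARCA4 was -0.054 with array weights. On leaving out each tumor in turn, log2 fold changes ran from -0.051 to 0.092 for SMARCA4, -0.067 to 0.096 for SMARCB1, -0.076 to 0.0015 for SMARCC2, -0.098 to 0.035 for SMARCD1 and -0.19 to 0.016 for ARID1A. SMARCA2 fell below the filter with the 50th percentile, the mean or the most variable probe set, so it has no value there. SMARCA2, SMARCD3, ARID1B and PBRM1 stayed below 0 in every alternative that gave a value. For SMARCA2 these all rest on its brightest probe set, and its second bright one gave 0.098 in the main fit. The dim probe set of SMARCD3 gave 0.049. The share of genes below 0 moved from 49.2% to 55.4% with quantile normalization and 58.8% with median centring, and 9 of 10 subunits were then below 0. Same-numbered tumors deviated together only weakly (r = 0.097, 0.17 and 0.051), each best with its own number, and the labels give no pairing. With the replicate block limma called 8 genes over all and 0 subunits. Arrays give no read depth, and dim probe sets limit what can be said of SMARCA2, ACTL6B and DPF3.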
